A study of Mus musculus with 6 samples.

Results

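Small nucleolar RNAs (snoRNAs) were examined as sources of small RNA fragments in bone marrow monocytes/macrophages (BMMs). The genes were chosen by an annotation rule, which was set with earlier results of these data known. They were the 140 mouse genes of type snoRNA in GENCODE whose symbols begin with Snord (98 genes) or Snora (42 genes), out of 1507 genes of that type. The reads that counted were those of 18 to 40 nt that matched one of these transcripts exactly on the sense strand and matched no miRNA hairpin. Genes that shared most of their reads were merged into 4 groups (Snord80, Snord50a/Snord50b, Snord14c/Snord14d and Snora16a), which left 136 genes or merged genes, of which 115 had reads. BMMs of wild-type C57BL/6 mice were cultured with PBS (control, 3 samples) or with LPS, a bacterial endotoxin, at 5 pg/ml (LPS, 3 samples) for 4 h, and every group came from the same genotype. The methods give mice of 7 to 10 weeks. The labels do not say whether the 3 samples of a group came from separate mice or cultures, so every p-value below measures the spread between these samples, which may be technical.

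C/D box snoRNAs (Snord) guide the 2′-O-methylation of ribosomal RNA and small nuclear RNA, and H/ACA box snoRNAs (Snora) guide pseudouridylation. A C/D snoRNA carries a C box near its 5′ end and a D box near its 3′ end, which are brought together in a kink-turn where fibrillarin, Nop56, Nop58 and the 15.5K protein assemble. An H/ACA snoRNA folds into hairpins joined by an H box and ends with an ACA box a few bases before its 3′ end. Most mammalian snoRNAs are released from introns of host genes, many of which encode ribosomal proteins. Fragments of both classes occur in small RNA libraries, and some have been described as bound to Argonaute proteins. Because no read in these files was longer than 40 nt, the values below count fragments and not whole snoRNAs.

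Fragments of 12 genes are shown first, chosen because the position results and the differences between samples below turn on them. Snord49a to Snord57 show 5′ ends of C/D snoRNAs, Snord104 to Snord32a show 3′ parts, Snord118 shows an internal fragment, and Snora41 to Snora52 show 3′ ends of H/ACA snoRNAs. Each is the most abundant read of at most 30 nt of its gene, written as DNA. Capitals mark TGATGA (the C box letters) and CTGA (the D box letters) in C/D reads, and ACA within the last 6 bases in H/ACA reads.
Snord49a: tgctgTGATGAgatgactaagtagg
Snord21: gccaaTGATGAcaccacactaaCTGAgc
Snord57: ggaaaggatgaacgaacttggcCTGAcc
Snord104: ccgggtgatgcgaatcgtaatCTGAgc
Snord2: CTGAaatgaagagaatactcttgCTGAtc
Snord17: caccaagatgagtggtgcaaatCTGAtc
Snord12: ctaattgccagttttgtCTGAtg
Snord32a: aacccatgcaccgctCTGAgact
Snord118: gaaaaTGATGAttggagcttgcatgatc
Snora41: ggaggattatgtgtgACAgac
Snora16a: aacattgtggaaaatgACAgct
Snora52: tgtgcctgcagcgcttcagaACAccc

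In GRCm38 coordinates of GENCODE M21, the Snord49a read spans chr11:62603450-62603474 on the plus strand, bases 1 to 25 of a 72-base transcript in an intron of 2410006H16Rik. The Snord104 read spans chr11:106501036-106501062 on the plus strand and forms the last 27 of 70 bases of a gene with no host on its strand. The Snord2 read spans chr16:23108989-23109017 on the plus strand, bases 37 to 65 of 69, inside the translation initiation gene Eif4a2. The Snord118 read spans chr11:69073474-69073501 on the plus strand, bases 48 to 75 of 135. The Snora41 read spans chr1:63179111-63179131 on the plus strand, bases 108 to 128 of 132, in an intron of the elongation factor gene Eef1b2. Of the 136 genes or merged genes, 129 lie inside another gene on the same strand, and 69 of them overlap no exon of it in any annotated isoform.

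The 6 files held between 2201520 and 17691405 reads, and LPS replicate 2 was the deepest. Sequences with a count of 1 made up 18.6% of those listed for LPS replicate 2 and 67.1 to 74.7% of those listed for any other sample. Between 54.5 and 63.7% of all reads matched miRNA hairpins. The hairpins fixed as myeloid markers (Mir223, Mir142, Mir146, Mir155 and Mir21a) summed to between 102293 and 137351 RPM (reads per 1000000 reads of the file). Within that list LPS replicate 2 stood apart for Mir146, at 28229 RPM against 1517 to 2522 RPM in the other 5 samples, and for Mir155, at 121 RPM against 28.8 to 46.4 RPM, both of which are known to be induced by LPS. The liver hairpin Mir122 was at 0 in 5 of 6 samples and at 1.13 RPM in LPS replicate 2, while the sums were 0 to 0.414 RPM for the muscle list, 0.226 to 2.27 RPM for the neuronal list and 0 to 0.828 RPM for the erythroid list. The epithelial list stood at 82.6 RPM in LPS replicate 2 and at 33 to 42.5 RPM in the other samples, and the part of these hairpins in the snoRNA values was not tested.

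snoRNA fragments made up 1.67, 1.04 and 1.01% of the reads of control replicates 1 to 3, and 1.52, 0.609 and 1.02% of those of LPS replicates 1 to 3. These shares rested on 64788, 25034 and 35990 reads in the controls and on 78376, 107704 and 22529 reads with LPS. The groups overlapped, the samples numbered 1 were highest in each group, and LPS replicate 2 was lowest of all. Reads of the other 156 snoRNA genes with reads, whose symbols have other forms, ran in parallel, at 17944, 10196 and 9958 RPM in the controls and at 16233, 6219 and 10153 RPM with LPS.

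C/D snoRNAs gave almost all of these fragments. Their level was 16381, 10117 and 9828 RPM in the controls and 14926, 5940 and 9998 RPM with LPS. H/ACA snoRNAs stood at 313, 248 and 244 RPM in the controls and at 299, 147 and 235 RPM with LPS. The C/D share of snoRNA reads was 98.1, 97.6 and 97.6% in the controls and 98.0, 97.6 and 97.7% with LPS, with 95% Wilson intervals that lay between 97.4 and 98.2% in every sample. Thus C/D reads were 40.2 to 52.3 times as frequent as H/ACA reads within a sample. These intervals, like the detection floors given below, cover counting error only, since PCR reads without molecular identifiers are not independent molecules. Of the 95 C/D genes, 76 had reads and 29 reached a mean of 100 RPM, whereas 39 of 41 H/ACA genes had reads and 0 reached that level. The median gene with reads stood at 61.4 RPM among C/D snoRNAs and at 1.72 RPM among H/ACA snoRNAs, both as means over the 6 samples.

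**Figure D1:**
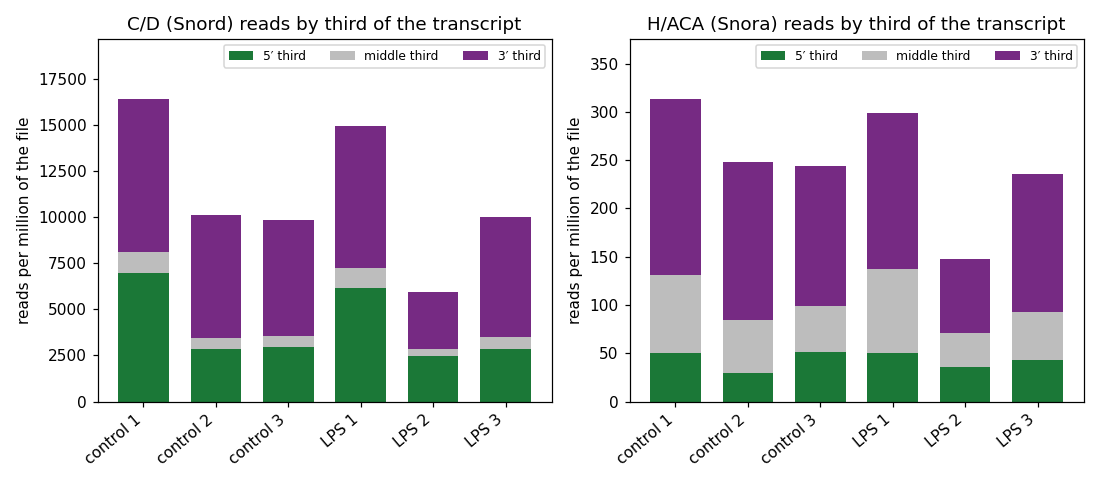
Stacked bars give the RPM for C/D (left) and H/ACA (right) snoRNAs in each of the 6 samples, divided by whether the centre of the read lay in the 5′, middle or 3′ part of 3 equal parts of the transcript. Control 1 and LPS 1 have the tallest C/D bars (16381 and 14926 RPM) and the tallest 5′ parts, and LPS 2 has the shortest bars in both panels (5940 and 147 RPM).

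LPS did not separate from control in the amount of snoRNA fragments. The mean log2 RPM of all snoRNA reads was 13.55 ± 0.41 (SD, n = 3) in control and 13.26 ± 0.66 with LPS, a difference of -0.29 (exact permutation test, two-sided, p = 0.5). C/D reads differed by -0.29 (exact permutation p = 0.5) and H/ACA reads by -0.29 (exact permutation p = 0.4) on the same scale. The C/D share differed by 0.0050 percentage points (exact permutation p = 0.9). With 3 samples against 3, the smallest p this test can give is 0.1. Within the sample numbers, the log2 difference of all snoRNA reads (LPS minus control) was -0.13 for number 1, -0.77 for number 2 and 0.02 for number 3. Without LPS replicate 2 the difference was 0.05 in place of -0.29, so the direction rested on that sample.

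Gene by gene, no snoRNA passed the test of LPS against control. Of the 115 genes with reads, 92 (75 C/D and 17 H/ACA) had enough counts for edgeR's quasi-likelihood test, which was fitted on all 956 features with Benjamini-Hochberg adjustment. It called 0 snoRNAs higher and 0 lower at an adjusted p under 0.05, beside 0% of all features in either direction. At an unadjusted p under 0.05 it had 0 snoRNAs in either direction, beside 25 of all 956 features higher and 7 lower. DESeq2 also called 0 snoRNAs at an adjusted p under 0.05, beside 0 of all features. The edgeR adjusted p of the snoRNAs lay between 0.986 and 0.988. The fitted log2 fold change was below 0 for 76 and above 0 for 16 of the 92 snoRNAs, with a median of -0.25 beside 0.0036 over all features. Without LPS replicate 2 the median was -0.01 over 94 snoRNAs (38 above and 56 below 0), and without control replicate 1 it was 0.07 over 93 (53 above and 40 below 0), so the lower direction rested on both of these samples. With a scaling over the snoRNAs alone, which centres them by construction, it was 0.03 (50 above and 42 below 0). On counts scaled between samples by edgeR (TMM), all LPS samples lay below all control samples for 5 of 92 snoRNAs, or 5.43%, beside 3.56% of all features. They lay above them for 0 snoRNAs, beside 4.18% of all features. The 5 (Snora16a, Snord32a, Snord37, Snord53 and Snord80) were named after their values were seen. In RPM the groups overlapped for Snora16a, Snord32a and Snord80. Snord32a, for example, stood at 454 RPM in LPS replicate 1 and at 443 RPM in control replicate 3.

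The largest C/D sources were a small set of genes. The 10 most read C/D genes of each sample held 50.8 to 55.8% of its C/D reads. Snord49a, encoded beside Snord49b in the same host, was highest by the mean over samples, with 1830, 731 and 631 RPM in the controls and 1535, 331 and 618 RPM with LPS. The samples numbered 1 were above all others for Snord49a, and the groups overlapped. The edgeR log2 fold change was -0.39 ± 0.54 (SE; adjusted p = 0.986).

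Snord12, in the noncoding host Zfas1, stood at 936, 1160 and 943 RPM in the controls and at 875, 87.3 and 964 RPM with LPS. It was steady in 5 samples and far lower in LPS replicate 2. Snord55 gave 1618, 501 and 467 RPM in the controls and 1312, 400 and 469 RPM with LPS. Here the samples numbered 1 stood apart and the other 4 lay close together. Snord104 gave 771, 563 and 630 RPM in the controls and 833, 390 and 701 RPM with LPS, and the groups overlapped.

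Snord2 varied least among the 10 leading C/D genes, with 595, 479 and 519 RPM in the controls and 567, 635 and 550 RPM with LPS. LPS replicate 2 was the highest sample for Snord2, although it was the lowest for the sum of all snoRNAs. A single 29-nt sequence, shown above, gave 65.6% of the Snord2 reads on average over the samples and ranged from 297 to 484 RPM. Snord93 and Snord17 followed, with means over samples of 485 and 450 RPM and fold changes of -0.16 for both on the log2 scale. Snord32a, Snord50a/Snord50b and Snord45c completed the 10, at means of 398, 349 and 347 RPM.

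H/ACA fragments were led by Snora44, Snora16a, Snora41 and Snora81. Snora44, in the host Snhg12, stood at 42.5, 33.5 and 30.8 RPM in the controls and at 41.4, 29.7 and 30.4 RPM with LPS. Snora16a, from the same host, stood at 40.5, 42.2 and 39.2 RPM in the controls and at 41, 8.08 and 34.1 RPM with LPS. LPS replicate 2 lay far below the others for Snora16a but not for Snora44. Snora41 stood at 47.4, 26.1 and 25.7 RPM in the controls and at 41, 21.6 and 21.8 RPM with LPS, the samples numbered 1 again being the highest. A single 21-nt sequence gave 64.2% of the Snora41 reads on average.

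**Figure D2:**
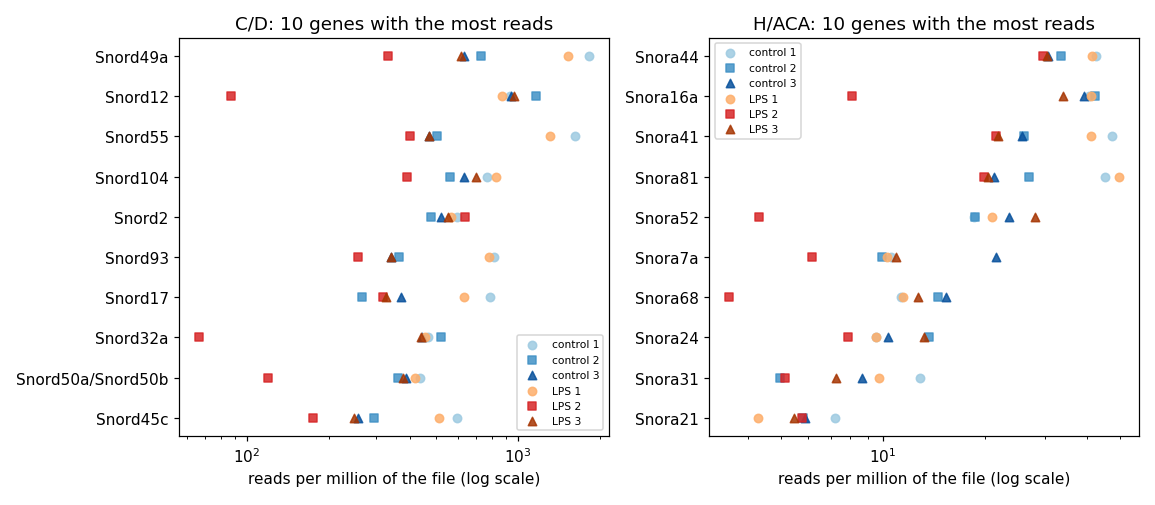
Points give the RPM (log axis) of the 10 most read C/D genes (left) and H/ACA genes (right) in each of the 6 samples. LPS 2 (red squares) lies far to the left for Snord12 (87.3 RPM), Snord32a (66.4 RPM) and Snora16a (8.08 RPM) but on the right for Snord2 (635 RPM), and control 1 and LPS 1 lie to the right for Snord49a and Snord55.

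The 5 genes with the smallest p in each direction did not pass the test either. Snord53, which lies in an intron of Wdr43, had the smallest p (unadjusted p = 0.0611, edgeR adjusted p = 0.986) and a log2 fold change of -0.80 ± 0.37 (SE). It gave 4.64, 4.55 and 6.44 RPM in the controls and 3.89, 1.81 and 4.09 RPM with LPS, so the groups did not overlap but the nearest samples were close. Snora61, Snora7a, Snord14a and Snora68 had fold changes of -0.60, -0.65, -0.73 and -0.65 on the log2 scale. In the other direction, Snord1c, Snord57, Snord21, Snord2 and Snord19 had fold changes of 0.53, 0.45, 0.37, 0.18 and 0.17, none of which passed the test. Snord57, in the host Nop56, gave 208, 147 and 168 RPM in the controls and 196, 322 and 165 RPM with LPS, and without LPS replicate 2 its fold change was -8.8e-05.

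The snoRNAs of ribosomal and noncoding host genes were read as groups. The Rpl13a locus hosts Snord32a, Snord33, Snord34 and Snord35a, which have been studied in the response of cells to lipids and oxidative stress. All 4 had reads and were tested, 0 rose and 0 fell, and the median log2 fold change was -0.27 beside 0.0036 over all features. Their summed level was 837, 722 and 652 RPM in the controls and 783, 185 and 652 RPM with LPS. The sum was therefore similar in 5 samples and low in LPS replicate 2, where Snord32a stood at 66.4 RPM against 440.2 to 520 RPM elsewhere.

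Gas5, a noncoding RNA that accumulates in growth-arrested cells, hosts many C/D snoRNAs, of which 3 (Snord47, Snord78 and Snord80) carried such symbols here. Their sum was 247, 259 and 255 RPM in the controls and 261, 159 and 258 RPM with LPS. All 3 were tested and 0 passed in either direction, with a median log2 fold change of -0.06. Of the Snhg1-hosted snoRNAs only Snord22 had such a symbol, at a mean of 45.9 RPM and a log2 fold change of -0.45, which did not pass.

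Some snoRNAs take part in the processing of the ribosomal RNA precursor. Of 8 genes on that list with reads, 5 were tested, 0 rose and 0 fell, and the median log2 fold change was -0.35. Snord118 (U8), needed for processing of the large subunit RNAs, gave 608, 238 and 227 RPM in the controls and 516, 167 and 230 RPM with LPS. Snord14c/Snord14d had a mean of 272 RPM and Snord13 of 32.2 RPM, while Snora73a, Snora73b and Snora74a stood at means of 1.51, 0.884 and 1.32 RPM and were too low to test. Reads of Snora74a that match a hairpin annotated as miRNA were left out.

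A set of C/D snoRNAs is used as reference RNAs when miRNAs are measured by PCR. All 6 of these (Snord61, Snord68, Snord70, Snord72, Snord95 and Snord96a) had reads and were tested, and 0 passed in either direction, with a median log2 fold change of -0.22. Their sum was 575, 436 and 463 RPM in the controls and 604, 157 and 501 RPM with LPS. Snord95 was the most read, at 220, 160 and 193 RPM in the controls and at 255, 73.9 and 210 RPM with LPS. Snord72 stood at 122, 141 and 119 RPM in the controls and at 115, 14.1 and 124 RPM with LPS, close together in 5 samples and low in LPS replicate 2. These are levels of fragments and do not measure the whole snoRNAs that such PCR assays detect.

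The snoRNAs of imprinted clusters are expressed mainly in neurons, and those with Snord symbols here were not read. Any cluster members with symbols of other forms were not examined. All 19 genes on that list (Snord64, Snord107 and the Snord116 copies) had 0 reads in 6 of 6 samples. A count of 0 allows up to 3 reads, or 0.170 RPM in the deepest and 1.36 RPM in the shallowest file. They account for 19 of the 21 genes without reads, the others being Snora35 and a copy of Snora43.

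Related families outside the snoRNA list also gave no calls. Of 9 Scarna genes with reads, which guide modification in Cajal bodies, 4 were tested and 0 passed, with sums of 72.2 to 197 RPM. Of 6 spliceosomal snRNA genes with symbols beginning with Rnu, 5 were tested and 0 passed, with sums of 397 to 523 RPM.

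Most fragments lay at an end of the transcript. A read was counted at an end where it started or stopped within 5 nt of it. C/D reads at the 5′ end made up 40.4, 25.8 and 27.7% of C/D reads in the controls and 38.8, 38.4 and 26.4% with LPS. C/D reads at the 3′ end made up 41.4, 49.9 and 49.4% in the controls and 42.1, 46.4 and 50.6% with LPS. Both ends together thus held most C/D reads in every sample, and 15.3 to 24.4% of C/D reads lay at neither end. Single genes departed from this, since 98.6% of the Snord12 reads lay at neither end by this rule. The widest 95% Wilson interval of the 3′-end share was 49.9 to 51.2%, in LPS replicate 3.

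H/ACA reads lay mainly at the 3′ end, with shares of 57.1, 64.8 and 58.0% in the controls and 52.5, 51.4 and 59.5% with LPS. At the 5′ end the shares were 14.8, 11.7 and 20.6% in the controls and 15.3, 23.4 and 17.0% with LPS. H/ACA reads at neither end made up 21.4 to 32.2%, more than those at the 5′ end in every sample. Fewer reads stand behind these shares (518 to 2609 a sample), and the interval in LPS replicate 3 was 55.2 to 63.6%. Within every sample the 3′-end share was greater in H/ACA than in C/D reads, by 10.6 ± 4.1 percentage points (SD, n = 6; range 5.07 to 15.7). The exact sign-flip permutation test over the 6 samples gave p = 0.031, the smallest it can give, and 0.156 after Benjamini-Hochberg adjustment over the 10 tests of class, position and length. When a read was placed by its centre in one of 3 equal parts of the transcript instead, the classes differed by 0.26 percentage points (exact p = 0.969), so the difference depended on how an end was defined.

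**Figure D3:**
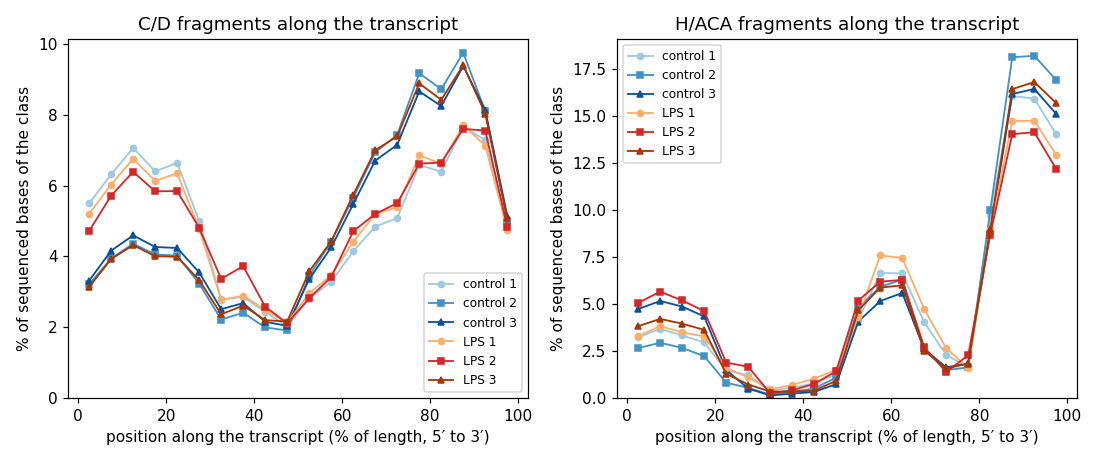
Lines give, for each of the 6 samples, the percentage of the sequenced bases of C/D (left) and H/ACA (right) snoRNA reads that fell in each of 20 equal bins from the 5′ to the 3′ end of the transcript. C/D coverage is high at both ends and H/ACA coverage is highest at the 3′ end, and in the C/D panel control 1, LPS 1 and LPS 2 are above the other 3 samples near the 5′ end.

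Many end reads began or stopped at the annotated base itself. Of C/D reads at the 5′ end, 46.1% started at the first annotated base and 34.6% at the next, as means over the 6 samples. Of C/D reads at the 3′ end, 32.2% stopped at the last base and 23.3% stopped 4 bases before it. Of H/ACA reads at the 3′ end, 71.9% stopped at the last base and 15.5% stopped 4 bases before it.

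The box letters marked in the sequences above were more frequent than in windows of the same lengths taken at every position of the same transcripts. TGATGA, searched on the sense strand, stood in 23.5 to 38.4% of C/D reads against 11.3 to 14.0% of such windows, and it occurs in 74 of 98 C/D transcripts (75.5%). A stop 0 to 3 bases after CTGA, searched on the same strand, was found for 50.3 to 66.5% of C/D reads against 13.9 to 16.5% of windows. The letters CTGA lie within the last 12 bases of 86 of 98 C/D transcripts (87.8%). The letters ACA stood in the last 6 bases of 45.6 to 62.8% of H/ACA reads against 9.40 to 9.90% of windows, and at that place in 39 of 42 H/ACA transcripts (92.9%) but in 5 of 98 C/D transcripts (5.10%). These matches describe letters, with no test, and the TGATGA and CTGA counts can refer to the same read.

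Most genes had the same most read part of the transcript in all samples. Of 71 C/D genes with a mean of at least 5 RPM, 57 had their most read part of 3 equal parts in the same place in all 6 samples: the 5′ part for 21, the middle for 3 and the 3′ part for 33. Snord55 and Snord93 were 5′ genes, with 97.4 and 95.4% of their reads in the 5′ part, whereas Snord104 and Snord99 were 3′ genes, each with 99.8% in the 3′ part. Snord118 was an exception, with 99.2% of its reads in the middle part. Of the 14 genes whose most read part differed between samples, 8 differed in LPS replicate 2 alone, among them Snord72, Snord21, Snord37 and Snord50a/Snord50b. Of 11 H/ACA genes at that level, 8 had the same most read part in all samples, the 3′ part for 5.

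The 5′ fragments of C/D snoRNAs set the samples numbered 1 apart, in both groups. Reads whose centre lay in the 5′ part gave 6985 RPM in control replicate 1 and 6145 RPM in LPS replicate 1, but 2831, 2951, 2462 and 2842 RPM in control replicates 2 and 3 and LPS replicates 2 and 3. In the 3′ part the corresponding levels were 8262 and 7679 RPM against 6697, 6276, 3080 and 6483 RPM. The gap of the samples numbered 1 was therefore wider for 5′ than for 3′ fragments, and it did not follow the treatment. Among 53 genes with a 5′ fragment of at least 5 RPM, the median log2 difference between the samples numbered 1 and control 2, control 3 and LPS 3 was 1.00, and both samples were above the other 3 for 43 genes. Among 62 genes with a 3′ fragment, the median was 0.22 and both were above for 32. These sets of samples were compared after their values were seen, so no test is given.

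Single genes showed the contrast between their own ends. The 5′ fragments of Snord49a stood at 1531 and 1237 RPM in control 1 and LPS 1 and at 390, 349, 231 and 319 RPM in control 2, control 3, LPS 2 and LPS 3. The 3′ fragments of the same gene stood at 298 and 297 RPM in the first pair and at 340.3, 281, 99.8 and 298 RPM in the others. Aside from LPS replicate 2, the 3′ fragments of Snord49a were thus level while its 5′ fragments were not. Snord66, in the host Eif4g1, repeated this with 5′ fragments at 50.2 and 50.5 RPM against 9.11, 9.24, 5.82 and 10.4 RPM. Its 3′ fragments stood at 90.2 and 79.1 RPM against 99.0, 75.8, 25.9 and 77.7 RPM. Over the 48 genes with fragments at both ends, the 5′ difference was the greater for 39, with a median excess of 0.59 on the log2 scale. Mitochondrial ribosomal RNA reads were also highest in these samples, at 3077 and 2652 RPM against 1581 to 2067 RPM, and nuclear-encoded ribosomal RNA genes gave 1867 and 2935 RPM against 981 to 1369 RPM. Their part in the snoRNA values was not tested.

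LPS replicate 2 differed from all other samples in a gene-specific way. Of the 62 3′ fragments, 52 were lower in LPS replicate 2 than in any other sample and 3 were higher, and its log2 difference from the mean of the other 5 had a median of -1.19 and a range of -5.43 to 2.41. Of the 53 5′ fragments, 29 were lower and 4 higher, with a median of -0.73 and a range of -1.61 to 1.17. The 3′ fragments of Snord72 stood at 1.81 RPM in LPS replicate 2 and at 83.9 to 120.5 RPM in the others, and those of Snord12 at 64.8 RPM against 845 to 1137 RPM. In contrast, the 3′ fragments of Snord21, a snoRNA in the ribosomal protein gene Rpl5, stood at 86.1 RPM in LPS replicate 2 and at 11.6 to 19.6 RPM in the others. Snord57 diverged between its own ends, its 5′ fragments standing at 316 RPM against 119 to 170 RPM and its 3′ fragments at 5.71 RPM against 27.7 to 37.7 RPM. LPS replicate 1 and LPS replicate 3 did not share these values. Mir146 and Mir155 were also raised in LPS replicate 2 alone, as given above, and how the treatment bears on its snoRNA values was not tested. Across the 92 tested genes, log2 levels of LPS replicate 2 had a Pearson r of 0.901 to 0.937 with the other samples, which had 0.954 to 0.995 among themselves. Genes are not independent replicates, and no p is given.

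**Figure D4:**
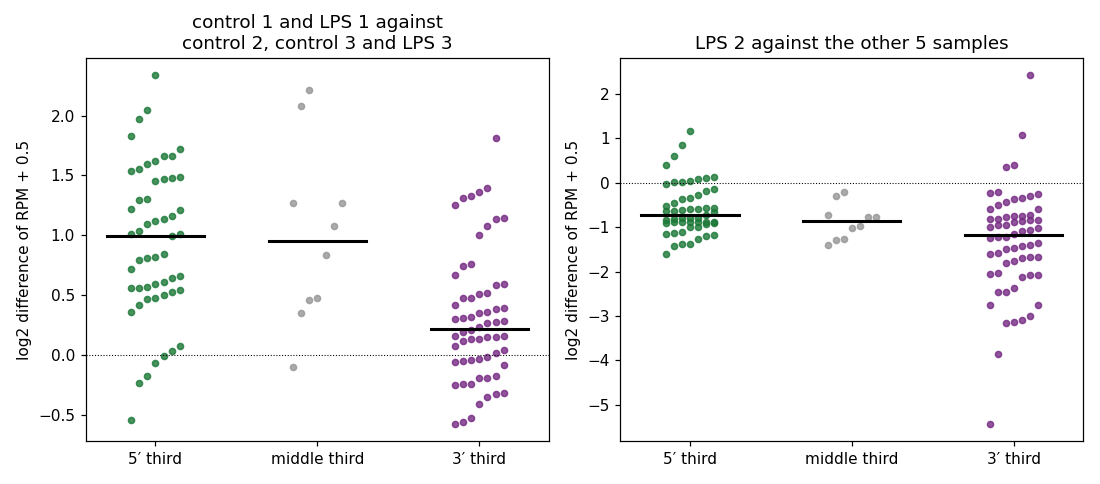
Each point is 1 C/D gene with at least 5 RPM in that part of the transcript, placed by the log2 difference of RPM + 0.5 between control 1 and LPS 1 and the set of control 2, control 3 and LPS 3 (left), or between LPS 2 and the mean of the other 5 samples (right), and bars mark medians. On the left the 5′ fragments have a median of 1.00 and the 3′ fragments of 0.22, and on the right the 3′ fragments spread from -5.43 to 2.41.

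LPS and control overlapped in the end shares that were tested, the 5′ end of C/D reads and the 3′ end of H/ACA reads. The permutation test used cannot give p under 0.1 here. The 5′-end share of C/D reads was 31.3 ± 8.0% (SD, n = 3) in control and 34.5 ± 7.1% with LPS, a difference of 3.27 percentage points (exact permutation p = 0.9). Within the sample numbers it differed by -1.54, 12.6 and -1.28 percentage points for numbers 1, 2 and 3. The 3′-end share of H/ACA reads was 60.0 ± 4.2% in control and 54.5 ± 4.4% with LPS, a difference of -5.50 percentage points (exact permutation p = 0.3). Within the numbers it differed by -4.61, -13.4 and 1.5 percentage points.

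C/D fragments were longer than H/ACA fragments. The mean read length was 27.9 to 29.5 nt for C/D and 25.3 to 27.1 nt for H/ACA reads. Reads of 27 nt or more made up 59.0, 67.5 and 69.6% of C/D reads in the controls and 61.3, 71.9 and 71.3% with LPS. For H/ACA reads the shares were 38.4, 30.3 and 37.6% in the controls and 42.3, 39.9 and 32.6% with LPS. The difference between the classes was 29.9 ± 8.3 percentage points (SD, n = 6) and had the same sign in 6 of 6 samples (range 19.0 to 38.6). The exact sign-flip permutation test gave p = 0.031, again the smallest possible, and 0.156 after adjustment over the 10 tests.

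The length profiles had different modes. H/ACA reads peaked at 21 and 22 nt, which held 16.8 and 14.1% of them on average, lengths that overlap those of miRNAs. C/D reads peaked at 28 nt in 5 samples and at 29 nt in LPS replicate 2, and the remainder spread from 18 to 40 nt. The 28-nt share was 10.7 to 14.5% over the 6 samples. At 29 nt, LPS replicate 2 held 15.9% of its C/D reads against 5.60 to 6.88% in the other samples. The 29-nt Snord2 sequence shown above was at 484 RPM in that sample, whose C/D total was 5940 RPM.

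**Figure D5:**
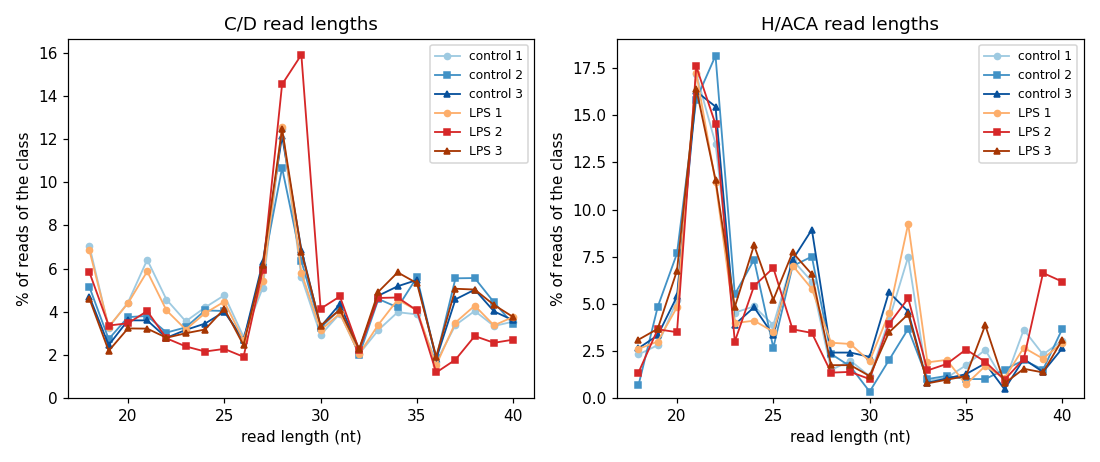
Lines give the percentage of C/D (left) and H/ACA (right) reads at each length from 18 to 40 nt in each of the 6 samples. C/D reads peak at 28 nt in 5 samples and at 29 nt (15.9%) in LPS 2, and H/ACA reads peak at 21 to 22 nt.

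The groups overlapped in read length. The share of C/D reads of 27 nt or more was 65.4 ± 5.6% (SD, n = 3) in control and 68.1 ± 5.9% with LPS (difference 2.78 percentage points, exact permutation p = 0.5). Within the sample numbers it was higher with LPS in 3 of 3 pairs, by 2.33, 4.34 and 1.65 percentage points for numbers 1, 2 and 3 (exact sign-flip permutation p = 0.25, the smallest that 3 pairs allow). The share of H/ACA reads of 27 nt or more was 35.4 ± 4.4% in control and 38.3 ± 5.0% with LPS (difference 2.84 percentage points, exact permutation p = 0.5), and within the numbers it differed by 3.85, 9.61 and -4.95 percentage points. After adjustment over the 10 tests, the p-values of the comparisons with LPS lay between 0.625 and 0.9.

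A few snoRNAs contain annotated miRNA hairpins, and reads that match both were left out above. Snora36b, whose transcript contains Mir664, gave 50.8, 51.8 and 54.0 RPM of such reads in the controls and 45.1, 60.8 and 49.5 RPM with LPS, against a mean of 3.59 RPM for its remaining reads. Snord33 shared 5.88 to 11.5 RPM with Mir5121. Snora3, Snora19, Snora34, Snora74a and Snora81 shared less, from 0 to 6.99 RPM in a sample. Antisense reads of the snoRNA genes were nearly absent, with 0 to 4 reads in a sample.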

How the data were processed

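Total small RNA of BMMs was sequenced by the authors on a HiSeq 1000 after TruSeq small RNA preparation, and adaptors were trimmed with perl scripts and Btrim64. Per sample, the deposited file holds raw counts of each distinct trimmed sequence, without gene names or normalization; the labels name build mm9. The members, gene lists and tests used here were chosen with earlier results of these data known.

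Reads of 18 to 40 nt were matched exactly, on the sense strand, to GENCODE M21 transcripts (GRCm38), with no genome step, so the builds were not mixed. A read went first to a miRNA hairpin, then to a snoRNA, then to other small RNAs, then to other genes. A read that matched several snoRNAs (4.69 to 5.54% of snoRNA reads) went to the one with the most reads, and genes sharing at least 50% of their reads were merged. Between 4.19 and 5.86% of snoRNA reads also matched a gene elsewhere. Depth was 2201520 to 17691405 reads, so 1 read is worth 0.0565 to 0.454 RPM.

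All features were fitted with edgeR 4.0.16 (R 4.3.3; quasi-likelihood, TMM, filterByExpr, Benjamini-Hochberg over all features), and single values with exact permutation tests (scipy 1.17.1), two-sided. Fragment differences by gene used log2(RPM + 0.5). The edgeR step was tested on simulated data with a common dispersion and no sample set apart. That run does not show the power of the test in these samples. Named genes were the 10 most read of each class, the 5 with the smallest p in each direction, and the lists. Over all 956 features, the deviations of samples with the same number correlated at 0.56, 0.24 and 0.20, against -0.35 to 0.11 for different numbers. Over the 92 snoRNAs the values were 0.46, -0.36 and 0.54, against -0.75 to 0.55 for different numbers. Over the snoRNAs the values for the same number were thus not all above those for different numbers, number 2 being at -0.36. Control 1 and LPS 1 did stand apart from the other samples in their 5′ fragments, as given above. Differences within the numbers are given above, but the main tests of LPS against control used no pairing. DESeq2 1.42.0, other scalings, filters, matching rules, a replicate block and omission of each sample were tried as alternatives.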

Additional observations from a re-analysis of the deposited data

How the results depend on the processing

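The count of called snoRNAs was 0 in both directions under every alternative run, including DESeq2, no filter on low counts, the replicate block and the omission of each sample. The block with pair 2 left out, chosen after seeing the data, also gave 0. Over all features, the run with no filter on low counts called 6 of 14274 higher and 0 lower. Every other run called 0 features. With the replicate block, the paired difference of all snoRNA reads was -0.29 on the log2 scale (exact p = 0.5), and the block changed no other call.

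The direction turned for small differences. The C/D share (LPS minus control) was -0.0242 percentage points with 3′ mismatches allowed, -0.0760 without sequences seen once, and -0.163 with hairpin reads kept, and it ranged from -0.128 to 0.184 when single samples were left out. The difference of all snoRNA reads ranged from -0.61 to 0.053 and that of C/D reads from -0.61 to 0.054 over these omissions. The share of long C/D reads differed by -1.93 at 30 nt or more and by -0.415 to 6.19 over the omissions. Among genes named for their p, the log2 fold change ranged from -0.012 to 0.40 for Snord19 and from -8.8e-05 to 0.61 for Snord57 over the omissions, with the lowest value without LPS replicate 1 and LPS replicate 2 in turn. With the replicate block and without pair 2 it was -0.047 for Snord57 and -0.12 for Snord21.

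The 3′-end difference between the classes was 7.36 percentage points without reads that match other genes (exact p = 0.0625) and 0.26 when reads were placed by their centre. With genes weighted equally it was 15.8 (exact p = 0.125 over the 5 samples with an H/ACA gene of 100 reads). That value rested most on control replicate 2, at 97.1% for H/ACA and 52.8% for C/D. Control replicate 3 went the other way, at 48.6% for H/ACA and 50.4% for C/D. Over the omissions the difference ranged from 9.58 to 11.7. The length difference was 34.1 with equal weights, over the same 5 samples (exact p = 0.0625), and 28.1 to 32.1 over the omissions. With 5 samples the exact test cannot go below 0.0625. The cause was not tested. H/ACA shares rest on few reads, the detection of low genes is limited by depth, and fragments say nothing of whole snoRNAs.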
